A study of Mus musculus with 10 samples.

Results

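The myosin and troponin isoform genes of the heart were followed in left ventricular RNA of mice with chronic kidney disease (CKD) and of sham-operated mice. The 10 genes were taken by symbol from the 23303 entries of the expression table: the myosin heavy chains Myh7 and Myh7b, the myosin light chains Myl2, Myl3, Myl4 and Myl7, and the troponins Tnnt2, Tnni3, Tnni1 and Tnnc1. The CKD and Sham groups each held 5 male mice of the 129X1/SvJ strain, with 1 library per mouse. The title names uremic cardiomyopathy, heart disease in kidney failure, and the single comparison is CKD with Sham. The labels give the procedure only as a surgery entry (CKD or Sham), and the mice's age and the time after surgery are not given in the sources used here. The number of a mouse is only a name and pairs no mice. Values are FPKM, which divide the fragments of a gene by transcript length and by the mapped fragments of the library, so that levels of different genes can be set side by side.

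Myosin is the motor of the thick filament, built of heavy chains that split ATP and pull on actin, with a regulatory and an essential light chain bound to each neck. Troponin sits on the thin filament and makes contraction depend on calcium: troponin C binds calcium, troponin I inhibits, and troponin T ties the complex to tropomyosin. Isoforms change between chambers and over life, and a return of Myh7 in place of Myh6 is a widely used sign of a stressed rodent ventricle.

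Myh6, the main heavy chain of the adult mouse ventricle, was listed at 0 in all 10 libraries and so carries no value here, and the share of Myh7 in the cardiac heavy chains could not be given. The gene lies directly beside Myh7, with 2666 bases between their annotated spans (GRCm38.p6, chr14:54941921-54968017 for Myh6 and chr14:54970684-54994626 for Myh7). Mir208a, Mir208b and Mir499, the microRNA genes inside Myh6, Myh7 and Myh7b, were also listed at 0 throughout, as was Atp2a2, the calcium pump of heart muscle. Why these entries were at 0 was not tested.

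The libraries CKD 1 and Sham 1 stood apart from the other 8, also in these genes. Together the 10 isoform genes made up 7.25% of total FPKM in CKD 1, 7.36% in Sham 1 and 9.18% to 9.59% in each of the other 8. Among the 5 most abundant of them Tnnt2 was farthest down, at 55.7% (CKD 1) and 57.8% (Sham 1) of the mean of the other mice of the same group. The low values of these 2 libraries were also built on other steps. If fragments are converted to FPKM alike in 2 libraries, a gene with a few fragments in both falls on a few fixed ratios, and among genes at 0.2 FPKM or less the commonest ratio (within 1%) was held by 27.2% to 31.9% of genes in the 28 pairs among the other 8. It was held by 17.2% of genes between CKD 1 and Sham 1, and by 2.27% to 3.61% in the 16 pairs that set CKD 1 or Sham 1 against another library. The relative depth of the 8 ranged from 0.906 to 1.15 times that of Sham 2, and that of CKD 1 and Sham 1 against them could not be read from the steps. Because each group holds 1 of these libraries, the changes of the isoform genes are given with all 10 and with the 8 others. Total FPKM ranged from 570509 to 605007 per library.

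The levels of the 10 genes spanned the table from its most abundant entry to entries under 1 FPKM. Myl2, the ventricular regulatory light chain, ranked 1 of 23303 by mean FPKM, and its lowest library lay above the highest library of every other isoform gene. Tnnt2 ranked 5, Myl3 ranked 6, Tnni3 ranked 7 and Tnnc1 ranked 8, and each of these overlapped its neighbour in the order across mice. Myh7 followed at rank 243, Myh7b at 1390 and Myl4 at 7721, none of which overlapped its neighbour. Myl7 (rank 11398) and Tnni1 (rank 13659), the atrial regulatory light chain and the slow skeletal and fetal troponin I, were lowest and overlapped each other. Of the 11 markers of atrial muscle, the channel genes Kcnj3 (17.6 to 29.1 FPKM) and Kcnj5 (14.5 to 29.6 FPKM) were highest, followed by Myl4. The other 8 stayed under 4 FPKM in every library, among them Sln, an atrial regulator of the calcium pump, at up to 1.05 FPKM. Bmp10 was listed at 0 throughout, as was Myh6, so its 0 is not read as absence.

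**Figure D1:**
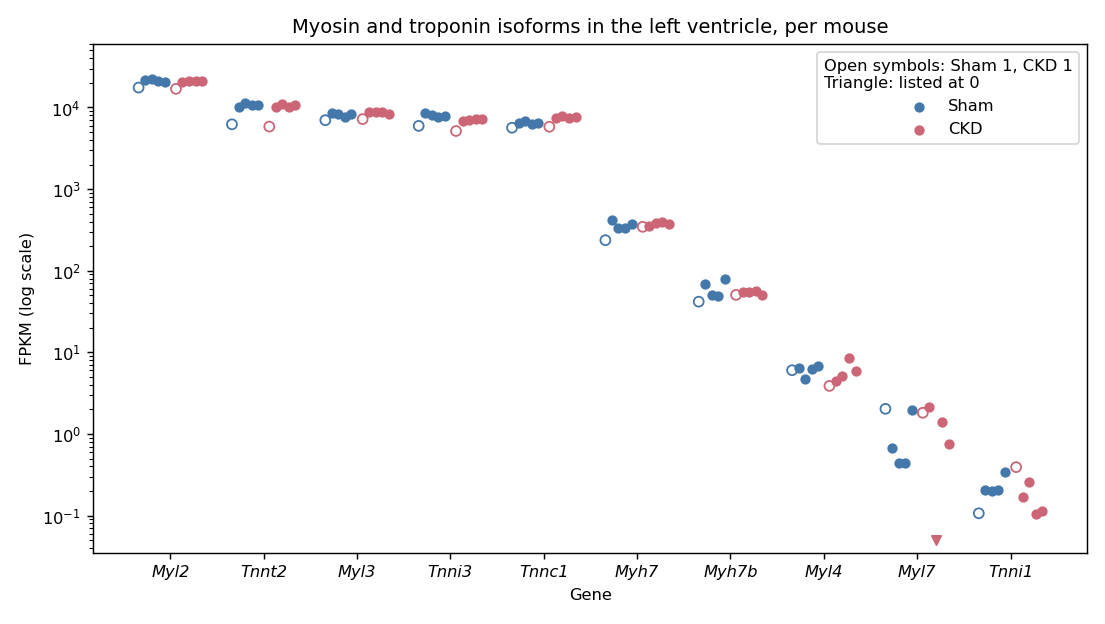
FPKM of the 10 isoform genes in each mouse on a log axis, blue for Sham and red for CKD, with open symbols for Sham 1 and CKD 1 and a triangle for the value listed at 0. The 5 most abundant genes lie between 5149 and 22199 FPKM in every mouse, Myh7 and Myh7b lie far lower, and the groups overlap for every gene.

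With all 10 libraries, none of the 9 isoform genes that passed the filter (mean FPKM of at least 1) passed limma's test of CKD against Sham at an adjusted p of 0.05. Of all 11651 genes tested, 3.17% were called higher in CKD and 2.12% lower (5.29% in all), and 2275 had an unadjusted p under 0.05, among them 1 isoform gene, Tnnc1. The median log2 change of the 9 genes was -0.03, against -0.00 over all genes tested. No isoform gene separated the groups without overlap, while 7.28% of tested genes did. Without CKD 1 and Sham 1, Tnnc1 rose and Tnni3 fell, where 2.62% of all tested genes were called higher and 2.14% lower (4.75% in all). These were 2 of the 9 isoform genes. In tissue, fewer cells of a type and less RNA per cell cannot be told apart.

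**Figure D2:**
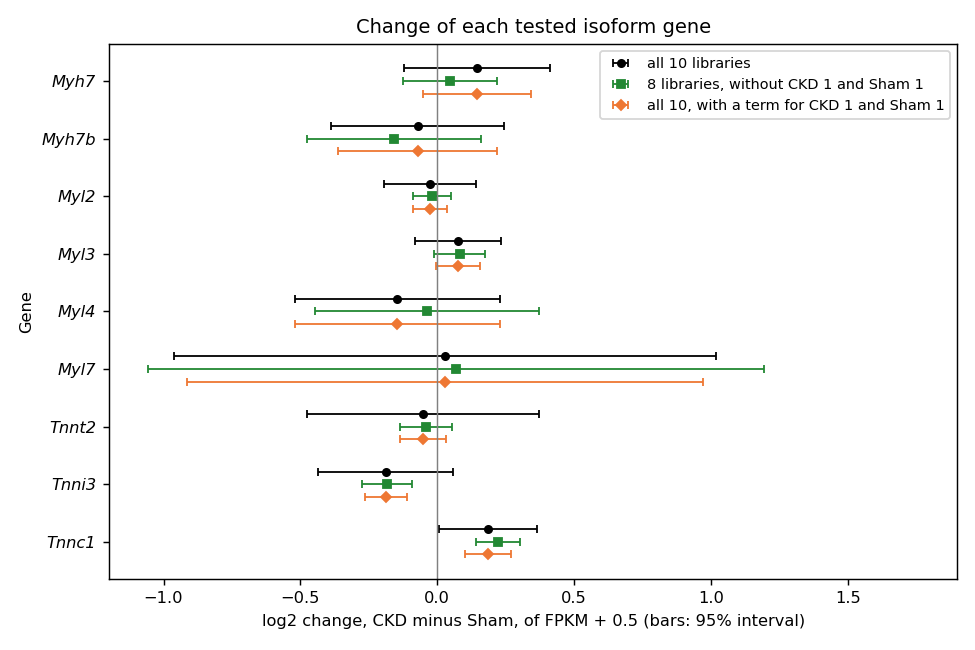
Change of each tested isoform gene, as log2 of FPKM + 0.5 in CKD minus Sham with its 95% interval, for all 10 libraries (black), the 8 without CKD 1 and Sham 1 (green) and all 10 with a term for those 2 libraries (orange). Intervals of Tnnc1 and Tnni3 exclude 0 on opposite sides in the green and orange fits, and the interval of Myl7 is the widest.

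The upstream sequences of Tnnc1 and Tnni3 are shown because they are the isoform genes that changed in the 8 libraries, and in opposite directions. Both are from RefSeq on GRCm38.p6, 5′ to 3′ on the gene's strand and ending at the base before the annotated start: chr14:31208062-31208311 on the plus strand for Tnnc1, and chr7:4522529-4522694 on the minus strand for Tnni3. The Tnni3 stretch is shorter because another annotated exon of the gene lies before it, and the annotated gene reaches to 4522718. Capitals mark matches, on either strand, to GATA, to CATTCC (the core bound by TEAD factors) and to CANNTG (the E-box).
Tnnc1: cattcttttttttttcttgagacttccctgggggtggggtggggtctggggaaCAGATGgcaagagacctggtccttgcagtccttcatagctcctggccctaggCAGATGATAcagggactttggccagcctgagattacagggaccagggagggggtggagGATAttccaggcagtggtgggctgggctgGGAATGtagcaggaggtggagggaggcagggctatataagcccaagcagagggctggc
Tnni3: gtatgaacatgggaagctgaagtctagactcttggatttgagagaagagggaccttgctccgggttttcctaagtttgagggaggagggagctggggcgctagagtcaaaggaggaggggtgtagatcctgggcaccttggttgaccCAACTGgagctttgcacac
The 250 bases before Tnnc1 held GATA 2 times, CATTCC 1 time and CANNTG 2 times, with 1 overlapping pair of matches. In windows of the same length before all 32851 RefSeq starts, 53.6% held GATA, 12.6% held CATTCC and 66.2% held CANNTG. The 166 bases before Tnni3 held CANNTG 1 time and neither of the others, where 51.1%, 39.1% (GATA) and 8.34% (CATTCC) of windows of that length held each. These are letter matches only.

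Tnnc1, the calcium-binding subunit of cardiac and slow muscle (chr14:31208312-31211729), measured 5810, 7540, 7910, 7349 and 7664 FPKM in CKD 1 to 5 and 5649, 6482, 6865, 6362 and 6411 FPKM in Sham 1 to 5. CKD 2 to 5 all lay above every Sham library, and CKD 1 lay within the Sham range. The group means were 7255 ± 833 in CKD and 6354 ± 441 in the Sham mice (SD, n = 5 per group), a log2 difference of 0.19 (SE 0.08, 95% interval 0.01 to 0.36, limma adjusted p = 0.234). Without CKD 1 and Sham 1 they were 7616 ± 235 and 6530 ± 229 (SD, n = 4 per group), with no overlap, and Tnnc1 rose by 0.22 on the log2 scale (SE 0.04, limma adjusted p = 0.0123), a 1.17-fold change. Non-overlapping groups were found for 13.1% of tested genes in these 8 libraries.

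Tnni3, the cardiac inhibitory subunit (chr7:4518305-4522718), measured 5149, 6845, 7063, 7305 and 7284 FPKM in CKD 1 to 5 and 5951, 8606, 8130, 7751 and 7887 FPKM in Sham 1 to 5. Every CKD library lay below Sham 2 to 5, and Sham 1 lay among the CKD libraries. The means were 6729 ± 903 in CKD and 7665 ± 1012 in the Sham mice (SD, n = 5 per group), a log2 difference of -0.19 (SE 0.11, 95% interval -0.43 to 0.06, limma adjusted p = 0.397). Without CKD 1 and Sham 1 they were 7124 ± 216 and 8093 ± 376 (SD, n = 4 per group), with no overlap, and Tnni3 fell by 0.18 on the log2 scale (SE 0.04, limma adjusted p = 0.0365). Both genes also passed in all 10 libraries with a term for CKD 1 and Sham 1 (limma adjusted p = 0.0158 for Tnnc1 and 0.0093 for Tnni3).

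Scaling moved both values without changing their signs. Centring each library on the median level of 14 cardiomyocyte markers moved the median of all genes by -0.128 on the log2 scale. A median of levels follows the markers of middle abundance, and the median log2 change of the 14 markers was only 0.03. The centred values are therefore not a general adjustment for cardiomyocyte content. Of the genes called, 59.9% were higher in CKD without centring and 13.9% with it, when 1.28% of tested genes were called higher and 7.94% lower (9.22% in all). Tnnc1 then differed by 0.06 (limma adjusted p = 0.506) and Tnni3 by -0.32 (limma adjusted p = 0.0353). Leaving out CKD 1 alone brought Tnnc1 to a log2 difference of 0.26 (limma adjusted p = 0.0190) and Tnni3 to -0.09 (limma adjusted p = 0.597). Leaving out Sham 1 alone brought Tnnc1 to 0.14 (limma adjusted p = 0.381) and Tnni3 to -0.28 (limma adjusted p = 0.140). Of the cardiomyocyte markers, 2 of 14 were called higher (Csrp3, at an adjusted p of 0.0461 that most left-out libraries ended, and Hspb7), and their summed level was 49140 to 54691 FPKM in CKD and 49886 to 53948 in Sham. The part of this list in the troponin result was not tested.

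The ratio of Tnnc1 to Tnni3 within a library is free of any factor that scales the whole library. It was 1.13, 1.10, 1.12, 1.01 and 1.05 in CKD 1 to 5, and 0.949, 0.753, 0.844, 0.821 and 0.813 in Sham 1 to 5. All 5 CKD libraries lay above all 5 Sham libraries, CKD 1 and Sham 1 included, with means of 1.08 ± 0.0515 and 0.836 ± 0.0716 (SD, n = 5 per group). This ratio was chosen after the values were seen and carries no test. It sets the gene that rose over the gene that fell without CKD 1 and Sham 1, so some separation was built in. The ratio of Tnnc1 to Tnnt2 overlapped in the 10 libraries, at 0.705 to 0.996 in CKD and 0.589 to 0.908 in Sham. Without CKD 1 and Sham 1 it did not, at 0.728 ± 0.0202 and 0.607 ± 0.0183 (SD, n = 4 per group). Against Myl2, Tnnc1 separated the groups, at 0.358 ± 0.0132 in CKD and 0.309 ± 0.00847 in Sham, whereas the ratio of Tnni3 to Myl2, at 0.331 ± 0.0162 and 0.371 ± 0.0227, overlapped (SD, n = 5 per group). Without CKD 1 and Sham 1 the ratio of Tnni3 to Myl2 did not overlap either, at 0.338 ± 0.00655 and 0.379 ± 0.0166 (SD, n = 4 per group). The ratios of Tnnt2 to Tnni3, Myl2 to Myl3 and Myl2 to Myh7 overlapped between the groups with and without those libraries. All these ratios were chosen after the values were seen. How often ratios of other genes separate the groups was not tested.

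**Figure D3:**
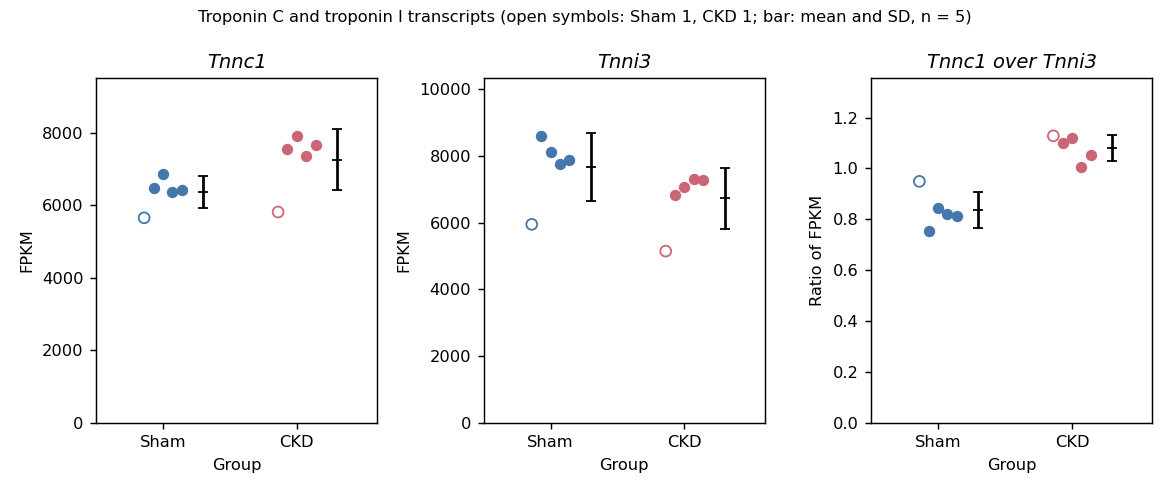
FPKM of Tnnc1 (left) and Tnni3 (middle) and their ratio (right) in each mouse, Sham in blue and CKD in red, with open symbols for Sham 1 and CKD 1 and bars for the mean and SD of 5 mice. The open symbols lie lowest of their group in both FPKM panels, and in the ratio panel every CKD mouse (1.01 to 1.13) lies above every Sham mouse (0.753 to 0.949).

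The other troponins differed by less than the spread between mice. Tnnt2, the cardiac troponin T (chr1:135836315-135852268), measured 5835, 10001, 10884, 10109 and 10876 FPKM in CKD 1 to 5 and 6222, 10257, 11311, 10626 and 10879 FPKM in Sham 1 to 5. The other 8 libraries lay within 10001 to 11311, and only CKD 1 and Sham 1 lay below. The log2 difference was -0.05 (SE 0.19, limma adjusted p = 0.928), and -0.04 without those 2 libraries (limma adjusted p = 0.654). Tnni1 (chr1:135783033-135810989) stayed between 0.105 and 0.392 FPKM and fell under the filter, and without a filter its log2 difference was -0.02 (limma adjusted p = 0.972). In the other 8 libraries the Tnni1 values lay near 1 to 3 steps of 0.101 FPKM at the depth of Sham 2. A change in Tnni1 could hardly be seen at so few steps. Its share of the summed Tnni1 and Tnni3 level was 0.00334% ± 0.00254 in CKD and 0.00272% ± 0.000952 in the Sham mice (SD, n = 5 per group; two-sided exact permutation p = 0.746, adjusted over 4 shares 0.833). The smallest p that the permutation of 5 against 5 mice allows is 0.00794.

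Myh7, the slow or beta heavy chain, was not called. It measured 345, 353, 381, 396 and 375 FPKM in CKD 1 to 5 and 237, 423, 332, 333 and 376 FPKM in Sham 1 to 5. The CKD mice lay close together inside the wider range of the Sham mice, whose lowest was Sham 1 and highest Sham 2. The means were 370 ± 20.9 and 340 ± 68.9 (SD, n = 5 per group), a log2 difference of 0.15 (SE 0.12, 95% interval -0.12 to 0.41, limma adjusted p = 0.578). Without CKD 1 and Sham 1 the difference was 0.05 (limma adjusted p = 0.799). It was 0.02 without Sham 1 alone and 0.23 without Sham 2 alone. RefSeq places Mhrt, Gm31251 and Mir208b over the span of Myh7, and since strand use was not given in the sources used here, reads of overlapping genes could not be told apart.

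Myh7b (chr2:155611243-155634307), a heavy chain whose gene also holds Mir499, measured 50.6, 54.7, 54.3, 56.8 and 50.4 FPKM in CKD 1 to 5 and 41.8, 68.8, 50.1, 48.8 and 78.6 FPKM in Sham 1 to 5. As with Myh7, the CKD mice lay inside the Sham range. The log2 difference was -0.07 (SE 0.15, limma adjusted p = 0.850), and -0.16 without CKD 1 and Sham 1 (limma adjusted p = 0.592). The share of Myh7b in the sum of both heavy chains was 12.6% ± 0.569 in CKD and 14.4% ± 1.82 in the Sham mice (SD, n = 5 per group; two-sided exact permutation p = 0.0556, adjusted over 4 shares 0.222), and the groups overlapped. The difference of -1.82 percentage points was -1.72 without CKD 1 and Sham 1 (exact permutation p = 0.143, adjusted 0.571). It was -1.10 without Sham 5, and over the 10 libraries left out in turn the exact permutation p ran from 0.0159 to 0.127 (adjusted 0.0635 to 0.508). Trpc4ap, which overlaps Myh7b in the annotation, was at 51.9 to 60.6 FPKM.

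Myh7 and Myh7b ran in parallel across the 10 mice by rank, while the linear correlation missed the threshold after adjustment (Pearson's r = 0.72, permutation p = 0.0271, adjusted over 5 relations 0.0676; Spearman's rho = 0.84, adjusted permutation p = 0.0179). With the group means subtracted r was 0.82 (adjusted permutation p = 0.0151). That permutation ran over all 10 mice and not within groups, although the Sham mice spread more widely, so its p is only a rough guide. Without Sham 1 and Sham 2, the mice farthest from the median of Myh7, r was 0.49, and without CKD 1 and Sham 1 it was 0.60 (n = 8, adjusted permutation p = 0.449), so the relation rests in part on those mice. The genes most like Myh7 in their pattern over the 10 libraries after the group means were subtracted were Sap30l, Trim26 and Ccdc104, each at r = 0.94, the highest of 10812 genes compared. Without CKD 1 and Sham 1, but with group means that included those libraries still subtracted, these genes gave r = 0.89, 0.86 and 0.82. Since they were picked as the highest of so many genes, they carry no test. Myh7 and Tnni1, both slow-fibre isoforms, gave r = 0.24 (permutation p = 0.511, adjusted 0.638; rho = 0.14, permutation p = 0.708, adjusted 0.885) over the 10 mice, -0.27 without Sham 1 and Sham 2, and -0.06 without CKD 1 and Sham 1. Because Tnni1 rested on very few steps, a relation between them could be missed.

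The ventricular light chains were not called in either set of libraries. Myl2 (chr5:122092724-122113473) measured 16935, 20613, 21219, 21305 and 21137 FPKM in CKD 1 to 5 and 17538, 21441, 22199, 21164 and 20713 FPKM in Sham 1 to 5. Again CKD 1 and Sham 1 lay lowest, and the other 8 lay within 20613 to 22199. The log2 difference was -0.03 (SE 0.08, limma adjusted p = 0.903), and -0.02 in the 8 libraries (95% interval -0.09 to 0.05). Myl3, the ventricular essential light chain (chr9:110763678-110769802), measured 7206, 8913, 8785, 8846 and 8353 FPKM in CKD 1 to 5 and 6989, 8615, 8331, 7668 and 8360 FPKM in Sham 1 to 5. The groups overlapped, with a log2 difference of 0.07 (SE 0.07, limma adjusted p = 0.634), 0.08 in the 8 libraries (limma adjusted p = 0.302) and -0.05 after centring on cardiomyocyte markers. Myl2 and Tnni3 gave r = 0.92 over the 10 mice (permutation p = 0.00118, adjusted 0.0059; rho = 0.81, permutation p = 0.00723, adjusted 0.0181), which rested on CKD 1 and Sham 1, since without them r was 0.53 (n = 8, adjusted permutation p = 0.449).

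The light chains of the atria stayed low in both groups. Myl4, the atrial essential light chain (chr11:104546017-104587215), measured 3.88, 4.44, 5.09, 8.56 and 5.86 FPKM in CKD 1 to 5 and 6.04, 6.35, 4.68, 6.26 and 6.86 FPKM in Sham 1 to 5. CKD mice were both the lowest and the highest, and the log2 difference was -0.15 (SE 0.17, limma adjusted p = 0.712). It was -0.04 without CKD 1 and Sham 1 (limma adjusted p = 0.939), -0.04 without CKD 1 alone, -0.08 without CKD 2, -0.30 without CKD 4 and -0.23 without Sham 3. Its share of the summed Myl4 and Myl3 level was 0.0657% ± 0.0189 in CKD and 0.0759% ± 0.0120 in the Sham mice (SD, n = 5 per group; two-sided exact permutation p = 0.325, adjusted over 4 shares 0.651). The difference of -0.0103 percentage points was -0.00469 without CKD 1 and Sham 1 (exact permutation p = 0.686, adjusted 0.771), -0.0063 without CKD 2 and -0.018 without CKD 4 (exact permutation p = 0.0476, adjusted 0.190). Cdc27, which overlaps Myl4 in the annotation, was at 6.96 to 9.37 FPKM.

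Myl7 (chr11:5896637-5898782) measured 1.82, 2.17, 0, 1.38 and 0.744 FPKM in CKD 1 to 5 and 2.03, 0.676, 0.438, 0.444 and 1.99 FPKM in Sham 1 to 5. In the 8 libraries that share a step, these values were whole multiples of a step worth 0.225 FPKM at the depth of Sham 2: 11, 0, 6 and 3 steps in CKD 2 to 5 and 3, 2, 2 and 8 steps in Sham 2 to 5. A difference of this size between mice therefore rests on a few steps. The log2 difference was 0.03 (SE 0.45, limma adjusted p = 0.987), with a 95% interval of -0.96 to 1.02, and 0.07 without CKD 1 and Sham 1 (limma adjusted p = 0.960). The share of Myl7 in the summed Myl7 and Myl2 level gave a two-sided exact permutation p of 0.833 (n = 5 each; adjusted 0.833), and 0.771 without CKD 1 and Sham 1. Myl7 and Myl4 showed no detectable relation over the 10 mice (r = 0.04, permutation p = 0.906, adjusted 0.906; rho = -0.02, permutation p = 0.973, adjusted 0.973; r = 0.18 without CKD 1 and CKD 4). It gave r = 0.29 with Sln (permutation p = 0.407, adjusted 0.638; rho = 0.20, permutation p = 0.575, adjusted 0.885), and -0.04 without CKD 2 and CKD 3. The genes most like Myl7 were Zfp592 (r = 0.97), Dok4 (r = 0.94) and Tmem74b (r = 0.92) by the same measure as for Myh7, also with no test. Without CKD 1 and Sham 1, but with group means that included those libraries still subtracted, these genes gave r = 0.97, 0.95 and 0.90.

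Other genes of the contractile apparatus were read from lists beside the isoform genes, against the same 3.17% called higher and 2.12% lower over all genes. Among myosin-binding and M-band proteins, 1 of 7 tested was called: Mybpc2, the fast skeletal myosin-binding protein C. It measured 16.2, 18.4, 20.5, 18.5 and 20.5 FPKM in CKD 1 to 5 and 8.25, 10.2, 7.05, 9.94 and 10.9 FPKM in Sham 1 to 5. Every CKD mouse lay above every Sham mouse, and 7.28% of all tested genes separated the groups without overlap. Mybpc2 rose by 1.00 on the log2 scale (SE 0.11, limma adjusted p = 0.000813), and its highest adjusted p over the alternatives was 0.00369. Mybpc3, the cardiac form, differed by 0.20 (limma adjusted p = 0.118) and passed without CKD 1 and Sham 1 (limma adjusted p = 0.0212).

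Skeletal muscle markers stood highest in 1 CKD mouse, CKD 2. The 11 skeletal markers summed to 23.6 to 57.2 FPKM in CKD and 19.8 to 28.1 FPKM in Sham, none was at 0 in every library, and none of the 4 tested was called. CKD 2 held the highest sum, with Myh4 at 2.21, Tnnt3 at 7.22 and Tnnc2 at 6.68 FPKM. Without CKD 2, Mybpc2 rose by 1.00 on the log2 scale (limma adjusted p = 0.00345).

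**Figure D4:**
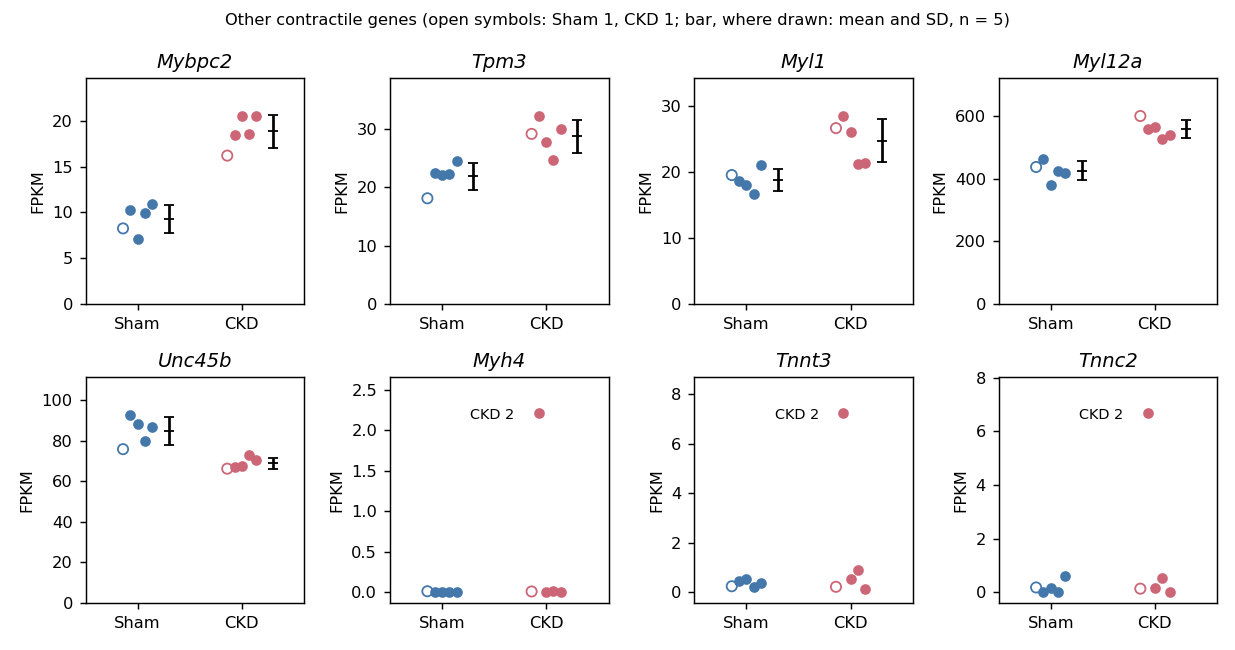
FPKM of 8 further contractile genes in each mouse, Sham in blue and CKD in red, open symbols for Sham 1 and CKD 1, with the mean and SD of 5 mice for the upper row and Unc45b. The groups do not overlap in those 5 panels, whose genes were called in these same data, and 7.28% of all tested genes did not overlap. In the panels of Myh4, Tnnt3 and Tnnc2 only CKD 2 stands above the rest.

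Of the 3 tested of 12 other striated myosin chains, Myl1, the fast skeletal essential light chain, was called higher, at 24.8 ± 3.26 FPKM in CKD and 18.8 ± 1.69 in the Sham mice (SD, n = 5 per group; log2 difference 0.39, limma adjusted p = 0.0353). This call was lost without CKD 1 and Sham 1 together (limma adjusted p = 0.0831) and without any 1 of CKD 1, CKD 2, CKD 3 or Sham 1 to Sham 4 (limma adjusted p between 0.0530 and 0.0874). Of 10 tropomyosin and thin filament cap genes, Tpm3 was called higher, at 28.8 ± 2.80 against 21.9 ± 2.30 FPKM (SD, n = 5 per group; log2 difference 0.39, limma adjusted p = 0.0245), and was lost in the same 8 libraries (limma adjusted p = 0.0541) and without any 1 of CKD 2, CKD 5, Sham 3 or Sham 4 (limma adjusted p between 0.0514 and 0.0667). Centring on cardiomyocyte markers also ended both calls (limma adjusted p = 0.128 for Myl1 and 0.0843 for Tpm3). Tpm1, the main cardiac tropomyosin, differed by -0.04 on the log2 scale, Actc1, the cardiac actin, by 0.03, and the giant spring protein Ttn by -0.18, and none passed. None of the 3 tested of 4 other troponins was called. Of the nonmuscle and smooth muscle chains, 1 of 8 was called: Myl12a, a nonmuscle regulatory light chain, rose from 425 ± 30.5 FPKM in Sham to 559 ± 27.9 in CKD (SD, n = 5 per group; log2 difference 0.39, limma adjusted p = 0.00277). Without CKD 1 and Sham 1, Myh10, Myl6 and Myl12b also passed. Among markers of other cells, 5 of 6 macrophage markers were called higher and summed to 204 to 307 FPKM in CKD and 133 to 155 in Sham. Fibroblast markers were called higher for 3 of 7 and summed to 656 to 799 FPKM in CKD and 576 to 646 in Sham. Smooth muscle markers were called for 0 of 7 and summed to 1444 to 1662 FPKM in CKD and 1198 to 1552 in Sham, and endothelial markers were called for 0 of 7. None of these markers was at 0 throughout, and their part in the Myl12a result was not tested.

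Genes that fold or regulate myosin were mostly not called. Of 10 folding and turnover genes, Unc45b, the muscle chaperone of the myosin motor domain, fell. It measured 66.3, 67.2, 67.5, 73.2 and 70.4 FPKM in CKD 1 to 5 and 75.9, 92.8, 88.5, 79.8 and 86.9 FPKM in Sham 1 to 5. All CKD mice lay below all Sham mice, where 7.28% of all tested genes separated the groups without overlap. Unc45b fell by 0.29 on the log2 scale (SE 0.06, limma adjusted p = 0.0155) and passed in every alternative, with adjusted p up to 0.0479. None of 7 light chain kinase and phosphatase genes was called with all 10 libraries, and Mylk3, the cardiac light chain kinase, fell without CKD 1 and Sham 1 (log2 difference -0.20, limma adjusted p = 0.0415). Of 20 regulators of contractile genes, 1 was called: the transcription factor Mef2a fell from 44.6 ± 4.47 FPKM in Sham to 36.9 ± 0.621 in CKD (SD, n = 5 per group; log2 difference -0.26, limma adjusted p = 0.0419), and the call was lost in the 8 libraries (limma adjusted p = 0.0844) and without any 1 library other than Sham 5 (limma adjusted p between 0.0576 and 0.101). The median log2 change of the 20 was -0.15, against -0.00 over all genes.

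Atrial markers held a call in each direction. Dkk3, a secreted glycoprotein, rose from 0.752 ± 0.231 FPKM in Sham to 1.75 ± 0.227 in CKD (log2 difference 0.86, limma adjusted p = 0.00489). Its Sham mean lay under the filter of 1 FPKM, so Dkk3 was tested only because of its CKD values. Both means lay close to the pseudocount of 0.5. Kcnj3, a potassium channel of atrial muscle, fell from 26.8 ± 1.89 to 19.7 ± 2.15 FPKM (log2 difference -0.44, limma adjusted p = 0.00778). Spreads are SD, n = 5 per group. The 11 atrial markers, Myl4 and Myl7 among them, summed to 45.2 to 58.2 FPKM in CKD and 60.1 to 73.4 in Sham. Kcnj3 and Kcnj5 were the largest terms of this sum. Myl4 and Myl7 overlapped between the groups and were not called. Dkk3 and Kcnj3 were 2 calls of 7 tested, where 5.29% of all tested genes were called.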

How the data were processed

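Per the labels' protocols, left ventricles were kept in RNALater and frozen, and TruSeq mRNA libraries were sequenced as single reads. The authors deposited FPKM for every gene of each library. Their processing notes list STAR 2.4.0f1, Cufflinks 2.1.1, Cuffdiff 2.1.1 and the builds mm10 and hg19, without roles. Strand use, the annotation and the handling of shared reads are not given in the sources used here. No count model was used, since the fragments behind an FPKM value are unknown.

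Values were analysed as log2(FPKM + 0.5), on which scale changes of genes near the pseudocount are understated. The 11651 genes whose mean FPKM reached 1 were compared with limma 3.58.1 in R 4.3.3 (two-sided, eBayes with a mean-variance trend, Benjamini-Hochberg over all tested genes, threshold 0.05). Leave-out fits used the same 11651 genes. Shares of 4 isoform pairs were tested by exact permutation of mice, and 5 correlations with 100000 permutations (scipy 1.17.1). From each list, up to 4 genes that passed, by smallest p, and Sln, Tpm1, Mybpc3, Actc1 and Ttn were named, with the 3 genes most like Myh7 and Myl7; Myh10, Myl6, Myl12b, Mylk3, Myh4, Tnnt3, Tnnc2, Trpc4ap and Cdc27 were named after their values were seen. The genes and lists were chosen with earlier results of these data known. Pseudocounts, filters, scalings, variance models and the libraries included were varied. Positions, overlapping genes and upstream sequences are RefSeq's on GRCm38.p6; both Tnnc1 and Tnni3 matched. Adgre1 was not analysed here.

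Tested on simulated data for 5 CKD against 5 Sham libraries, with 200 of 11651 genes changed, the test found 39.2% of the 1.25-fold changes, 83.3% of the 1.5-fold, 94% of the 2-fold and 100% of the 3-fold changes. It made 171 calls, 13 of them false. The simulated noise was independent between genes and libraries, without the shift that CKD 1 and Sham 1 share. The fit without CKD 1 and Sham 1, and changes under 1.25-fold, were not simulated.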

Additional observations from a re-analysis of the deposited data

Results flagged for a closer look

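In 28 groups checked (each of the 10 isoform genes and 4 shares in CKD and in Sham), 5 held a mouse set apart from the other 4 of its group by Dixon's test, where chance gives about 1 in 20. All were the lowest value and all came from CKD 1 or Sham 1. CKD 1 was flagged for Myl2 (16935 FPKM), Tnnt2 (5835 FPKM), Tnni3 (5149 FPKM) and Tnnc1 (5810 FPKM), and Sham 1 for Tnnt2 (6222 FPKM). Over the pair of libraries alone, CKD 1 over Sham 1 was 1.03-fold for Tnnc1 and 0.865-fold for Tnni3.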

How the results depend on the processing

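Tnnc1 stayed higher and Tnni3 lower in CKD under every alternative run. The count of isoform genes called higher went from 0 to 1 (Tnnc1) under quantile normalization, in the 8 libraries left without CKD 1 and Sham 1, and in all 10 with their term, and ranged from 0 to 1 when each library was left out. The count called lower went from 0 to 1 (Tnni3) after centring on cardiomyocyte markers, in those 8 libraries and with the term. Over all genes, 369 were higher and 247 lower; centring gave 149 and 925, the term gave 573 and 479, array weights gave 400 lower, and leaving out each library gave 201 to 384 higher and 131 to 290 lower. Myl7 reversed to -0.18 with a pseudocount of 0.1 and to -0.10 after centring, which also took Myl3 to -0.0534. Leaving out each library moved the log2 difference of Myh7 between 0.021 and 0.23, of Myl4 between -0.30 and -0.0396, of Myl3 between 0.0275 and 0.13, of Tnnc1 between 0.14 and 0.26, of Tnni3 between -0.28 and -0.0949, of Myl7 between -0.18 and 0.42, of Myl2 between -0.0838 and 0.0363, of Tnnt2 between -0.21 and 0.12 and of Myh7b between -0.18 and 0.0499. The difference in share ranged from -2.23 to -1.10 percentage points for Myh7b, from -0.018 to -0.0063 for Myl4, from -0.000551 to 0.00213 for Myl7 and from -0.000445 to 0.0011 for Tnni1, which reversed to -0.000677 without CKD 1 and Sham 1. In those 8 libraries the correlation of Myh7 with Tnni1 was -0.064 and that of Myl2 with Tnni3 was 0.53, and with group means subtracted Myh7 with Myh7b reached 0.82. The causes were not tested. No paired analysis was possible because the labels give no replicate numbers that mice of the groups share.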

Other observations

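The heavy chains other than Myh6 differed in spread between the groups. The coefficient of variation of Myh7b was 26.8% over the 5 Sham mice and 5.23% over the 5 CKD mice, and that of Myh7 was 20.3% and 5.63%. Without CKD 1 and Sham 1 these were 23.7% and 4.94% for Myh7b and 11.8% and 4.74% for Myh7. Sham 5 and Sham 2 held the highest Myh7b values (78.6 and 68.8 FPKM), and Sham 1 the lowest. This difference in spread was noticed after the values were seen and was not tested.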
